A study of Mus musculus with 9 samples.

Results

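The interferon-inducible GTPases described here are 8 mouse genes, Gbp2, Gbp3, Irgm1, Irgm2, Igtp, Iigp1, Ifi47 and Tgtp1, of 16535 genes that could be named on the array. Every probe whose accession belonged to one of them was taken, which gave 10 probes of 41174, with 2 probes each for Irgm1 and Tgtp1 and 1 probe for each of the other genes. The cells were FDCPmix, a mouse multipotent haematopoietic progenitor cell line that depends on interleukin 3 and was kept in self-renewal conditions. Each culture received a lentivirus that also encodes GFP, and viable GFP+ cells were sorted 5 days later. The virus was empty in the control (EV), carried an shRNA against Gata2 in the Gata2 knockdown (Gata2 KD), and carried an shRNA against Pu.1, the gene Spi1, in the Pu.1 knockdown (Pu.1 KD). Each group had 3 samples, labelled as triplicates of 1 cell line, so p-values measure the spread between these samples, and the control virus carried no shRNA. Total RNA (150 ng) was labelled with Cy3 and hybridised to single-colour Agilent arrays, 9 in all.

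Interferon-inducible GTPases are among the most abundant products of cells that respond to interferon-gamma. Interferon receptors act through JAK kinases on STAT proteins, which bind GAS elements, and on interferon regulatory factors (IRFs), which bind ISRE elements in the promoters of these genes. The guanylate-binding proteins and the effector GTPases of the IRG family load onto the membranes of vacuoles that hold intracellular pathogens, while the regulatory IRG proteins sit on the cell's own membranes and keep the effectors inactive there. GATA2 is a transcription factor of stem and progenitor cells, and PU.1 is an ETS factor needed for myeloid and lymphoid development.

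The sequences upstream of the genes are shown first, because most of the members carry the same interferon element close to the transcription start site. Upstream sequences (RefSeq start sites, build GRCm38.p6) were available for 7 of the 8 members, all except Iigp1, with 2 start sites for Gbp3. Each line gives the 100 bases before an annotated start site, 5′ to 3′ on the strand of the gene, and capitals mark matches to the motifs named after them.

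Gbp2 (chr3:142620563-142620662, + strand): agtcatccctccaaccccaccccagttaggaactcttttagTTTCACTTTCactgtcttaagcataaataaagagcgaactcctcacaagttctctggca
Gbp3, first start site (chr3:142559944-142560043, + strand): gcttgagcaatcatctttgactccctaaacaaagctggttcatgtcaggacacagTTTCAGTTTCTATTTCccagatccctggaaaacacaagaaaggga
Irgm1 (chr11:48871421-48871520, - strand): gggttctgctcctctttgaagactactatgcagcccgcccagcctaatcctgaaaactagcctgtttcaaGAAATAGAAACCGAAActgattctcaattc
Irgm2 (chr11:58214877-58214976, + strand): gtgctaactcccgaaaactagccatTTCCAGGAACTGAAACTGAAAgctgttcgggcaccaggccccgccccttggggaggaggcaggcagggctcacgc
Igtp (chr11:58199456-58199555, + strand): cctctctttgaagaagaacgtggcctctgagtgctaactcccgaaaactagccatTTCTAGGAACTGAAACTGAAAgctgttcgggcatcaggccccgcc
Ifi47 (chr11:49076487-49076586, + strand): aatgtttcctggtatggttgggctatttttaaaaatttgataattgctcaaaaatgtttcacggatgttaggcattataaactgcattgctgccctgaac
Tgtp1 (chr11:48992247-48992346, - strand): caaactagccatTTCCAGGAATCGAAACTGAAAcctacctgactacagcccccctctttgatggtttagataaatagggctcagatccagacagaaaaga

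The ISRE core (GAAA, any 2 bases, then GAAA), searched on both strands without mismatches in windows from 250 bases before to 50 bases after a start site, was found in 6 of the 7 genes and in 3.44% of all 32851 windows. The first match began 59 bases before the start site in Gbp2, 45 in Gbp3, 30 in Irgm1, 64 in Irgm2, 34 in Igtp and 77 in Tgtp1. Gbp3 and Irgm1 each held a second match that overlapped the first. The GAS motif TTCNNNGAA was found in 3 genes, Irgm2, Igtp and Tgtp1, and in 8.3% of all windows, and a window with both motifs made up 0.454% of all windows. In those 3 genes the GAS match was joined to an ETS-IRF composite (GGAA, any 2 bases, then GAAA), which was found in 2.72% of all windows and here overlapped both the GAS and the ISRE match. Irgm2 and Igtp, which are adjacent genes, shared an unbroken run of 55 bases upstream. The PU.1 motif GGAAGTG was found in Irgm1 alone, 162 bases before its start site, against 11% of all windows, and the GATA motif AGATAAG in none of the 7 genes, against 3.04%. No motif searched was found in the Ifi47 window or at the other start site of Gbp3. A match describes letters and does not show a bound site.

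**Figure D1:**
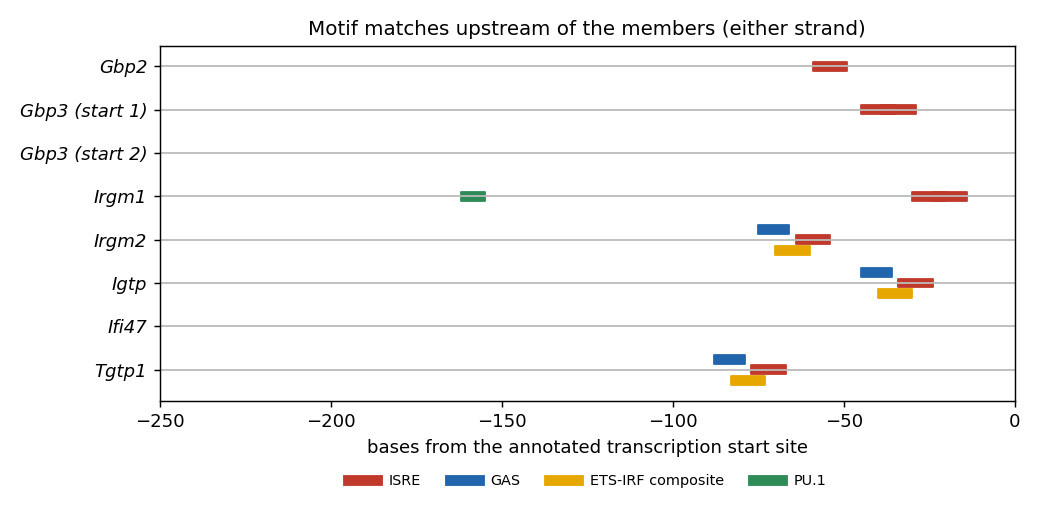
Position of motif matches in the 250 bases before each annotated start site of 7 members (x axis, bases from the start site; one line per start site; colours give the motif, either strand). The first ISRE match of 6 genes began between 77 and 30 bases before the start site, and the GAS and ETS-IRF composite matches of Irgm2, Igtp and Tgtp1 lay directly upstream of and across them.

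Between 80.4% and 89.6% of the spots on an array were well above background. The arrays lay on 3 slides, each with 1 array of every group, and the 3 arrays of slide 3 had the lowest shares (80.4% to 84.0%). Levels are log2 processed signals with the 75th percentile of the array set to 0. The targeted genes moved as labelled: Gata2 fell by 1.61 on the log2 scale in Gata2 KD (limma, adjusted p = 0.00414), and Spi1 fell by 1.73 in Pu.1 KD (adjusted p = 0.00178, and by 1.0 with normexp correction). Spi1 also rose by 1.39 in Gata2 KD (adjusted p = 0.0012). All 11 progenitor markers examined were well above background on every EV array. Of these, Cd34 (2.17), Lmo2 (0.93) and Kit (0.75) rose in Gata2 KD and Gata2 and Tal1 (-0.64) fell, while in Pu.1 KD Kit rose by 1.41 and Cd34 (-0.92) and Runx1 (-1.04) fell.

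In Gata2 KD the members split. Of 8 members tested, 2 were higher than in EV (Gbp3 and Gbp2) and 2 were lower (Ifi47 and Tgtp1). Tgtp1 was lower by the brighter of its 2 probes and not by the other. Of all 36585 tested probes, 2.96% were called higher and 2.24% lower, 5.2% in either direction. The median change of the 8 members was 0.29 on the log2 scale against -0.09 over all 15808 named genes tested. The groups did not overlap for 5 members that were higher and 2 that were lower, where 7.65% of all tested probes did not overlap upwards and 10.9% downwards. Among the 5 is Iigp1, which was tested only because it was well above background on the Gata2 KD arrays. In Pu.1 KD 1 member was called, Igtp, which was higher, where 1.27% of all tested probes were called higher and 1.42% lower, 2.7% in either direction. There the groups did not overlap for 1 member that was higher and 1 that was lower, against 7.93% and 9.32% of all tested probes. The median change was 0.04, against -0.04 over all named genes. Both knockdowns are compared with the same EV arrays.

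**Figure D2:**
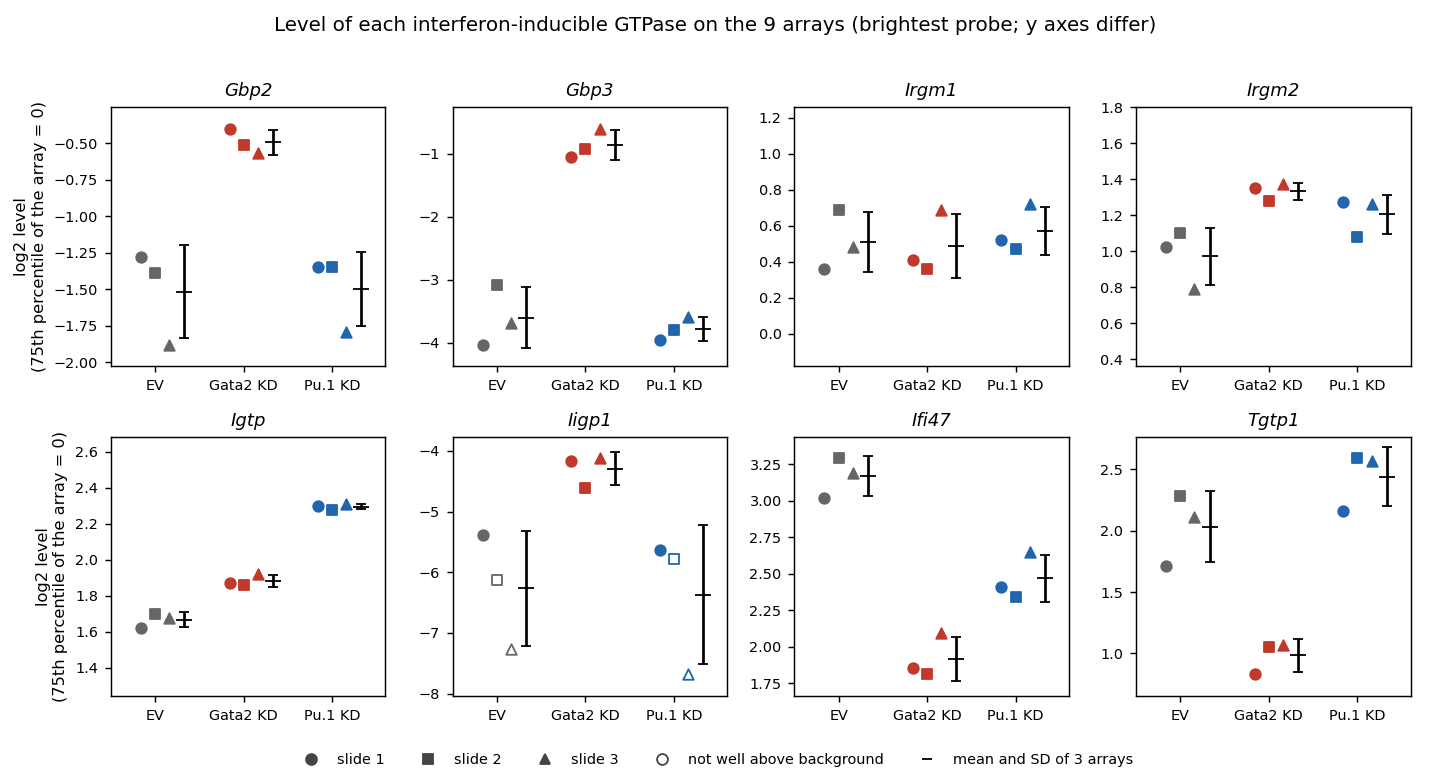
Levels of the 8 members on the 9 arrays (y axis, log2 level with the 75th percentile of the array at 0, each panel with its own range; marker shape gives the slide, open markers are not well above background, bars are mean and SD of 3 arrays). Gbp3 and Gbp2 were higher in every Gata2 KD array than in any other array, and Ifi47 and Tgtp1 were lower in every Gata2 KD array than in any other array.

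Gbp3, a guanylate-binding protein that acts at pathogen vacuoles, had the largest change of the members. Its log2 level was -4.03, -3.69 and -3.08 in EV, -0.60, -0.93 and -1.05 in Gata2 KD, and -3.80, -3.59 and -3.96 in Pu.1 KD. The 3 Gata2 KD arrays stood apart above the other 6 arrays, and the EV and Pu.1 KD arrays overlapped. The level rose in Gata2 KD by 2.74 ± 0.25 (SE), a 6.68-fold change (adjusted p = 0.000416), and by 2.15 to 3.09 within the slides. In Pu.1 KD the difference from EV was -0.18 (95% interval -0.76 to 0.40, adjusted p = 0.956). With normexp background correction, which compresses low signals, the rise in Gata2 KD was 1.77 and was still called.

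Gbp2, a guanylate-binding protein of the same cluster on chromosome 3, had log2 levels of -1.28, -1.88 and -1.39 in EV, -0.57, -0.51 and -0.40 in Gata2 KD, and -1.35, -1.79 and -1.35 in Pu.1 KD. Again the 3 Gata2 KD arrays lay above all others. The rise in Gata2 KD was 1.02 ± 0.20, or 2.03-fold (adjusted p = 0.0217), and 0.87 to 1.31 within the slides. Leaving out EV replicate 2 or any 1 of the Gata2 KD arrays ended the call (0.84 to 1.06, adjusted p = 0.0577 to 0.0928). The level in Pu.1 KD differed from EV by 0.02 (95% interval -0.44 to 0.48).

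The regulatory IRG proteins, Irgm1, Irgm2 and Igtp, were not called in Gata2 KD. Irgm1, which controls autophagy and the effector GTPases in infected cells, had log2 levels of 0.36, 0.48 and 0.69 in EV, 0.69, 0.36 and 0.41 in Gata2 KD, and 0.47, 0.72 and 0.52 in Pu.1 KD, so that all groups overlapped. The difference in Gata2 KD was -0.03 (95% interval -0.39 to 0.33), and in Pu.1 KD 0.06 (-0.30 to 0.42). A second Irgm1 probe gave -0.13 (-0.47 to 0.22) and -0.01 (-0.35 to 0.34).

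Irgm2, another regulatory IRG protein, was at 1.02, 0.79 and 1.1 in EV, 1.37, 1.28 and 1.35 in Gata2 KD, and 1.08, 1.26 and 1.27 in Pu.1 KD. The Gata2 KD arrays lay above the EV arrays without overlap, but the difference of 0.36 (95% interval 0.06 to 0.67) did not pass the threshold (adjusted p = 0.235). In Pu.1 KD the difference was 0.24 (-0.07 to 0.55, adjusted p = 0.603), and the groups overlapped.

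Igtp, also known as Irgm3, had the least spread within groups of the members. Its log2 level was 1.62, 1.68 and 1.70 in EV, 1.92, 1.86 and 1.87 in Gata2 KD, and 2.28, 2.31 and 2.30 in Pu.1 KD. The 3 groups did not overlap and were ordered EV, Gata2 KD, Pu.1 KD. The level rose in Pu.1 KD by 0.63 ± 0.11, or 1.55-fold (adjusted p = 0.0253), and by 0.58 to 0.67 within the slides. In Gata2 KD the difference of 0.21 (95% interval -0.04 to 0.47) was not called (adjusted p = 0.475). The Pu.1 KD call was lost when any of 8 arrays was left out, all except Gata2 KD replicate 1, with values of 0.61 to 0.65 and adjusted p = 0.0527 to 0.11. Igtp and its neighbour Irgm2, which share 55 bases upstream, were thus not called alike in Pu.1 KD, and the difference between the 2 genes was not tested.

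Of the effector IRG proteins, Ifi47 and, by its brighter probe, Tgtp1 were lower in Gata2 KD and Iigp1 was not called. Ifi47, also called Irgd, was at 3.02, 3.19 and 3.29 in EV, 2.09, 1.81 and 1.85 in Gata2 KD, and 2.34, 2.65 and 2.41 in Pu.1 KD. No group overlapped another, and the order from the top was EV, Pu.1 KD, Gata2 KD. The level fell by 1.25 in Gata2 KD (SE 0.15, 2.38-fold lower, adjusted p = 0.00189), and within the slides the differences were -1.48 to -1.1. In Pu.1 KD the difference of -0.70 (95% interval -1.05 to -0.35) missed the threshold (adjusted p = 0.0542) and passed it with the slide as a block (adjusted p = 0.0261).

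Tgtp1, also called Irgb6, was read by 2 probes of the same accession that disagreed. The brighter probe was at 1.71, 2.11 and 2.28 in EV, 1.07, 1.05 and 0.83 in Gata2 KD, and 2.59, 2.57 and 2.16 in Pu.1 KD. All Gata2 KD arrays were below all others, and the EV and Pu.1 KD arrays overlapped. This probe fell by 1.05 in Gata2 KD (SE 0.20, 2.07-fold lower, adjusted p = 0.0175), with -1.23 to -0.87 within the slides, and in Pu.1 KD the difference was 0.41 (95% interval -0.04 to 0.86). The other probe, also well above background on all 9 arrays, gave -1.24, -1.36 and -0.78 in EV, -1.44, -0.86 and -1.09 in Gata2 KD, and -0.82, -1.36 and -1.0 in Pu.1 KD. There the Gata2 KD difference was -0.002 (95% interval -0.53 to 0.53). With the median of both probes Tgtp1 had a difference of -0.53 that was not called (adjusted p = 0.19). Leaving out EV replicate 2 or 3 or any 1 of the Gata2 KD arrays also ended the call of the brighter probe (-1.09 to -0.92, adjusted p = 0.0501 to 0.0803). Tgtp1 has a near-identical paralog, Tgtp2, to which no probe was assigned, and signal from the 2 genes cannot be told apart here.

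**Figure D3:**
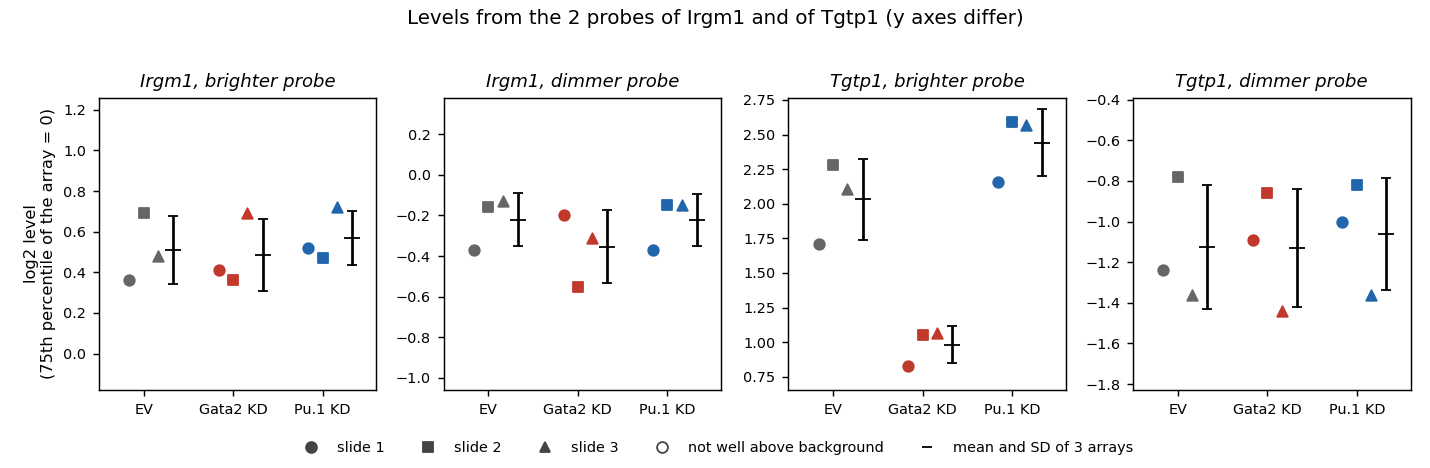
Levels from both probes of Irgm1 and of Tgtp1 on the 9 arrays (y axis, log2 level with the 75th percentile of the array at 0, each panel with its own range; marker shape gives the slide, bars are mean and SD of 3 arrays). The brighter Tgtp1 probe was at 0.83 to 1.07 in Gata2 KD and at 1.71 to 2.59 elsewhere, whereas the groups overlapped for the dimmer probe and for both probes of Irgm1.

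Iigp1, also called Irga6, an effector that disrupts parasite vacuoles, was close to background. Its log2 level was -5.39, -7.27 and -6.12 in EV, -4.12, -4.61 and -4.16 in Gata2 KD, and -5.78, -7.68 and -5.64 in Pu.1 KD. It was well above background on all 3 Gata2 KD arrays but on 1 of 3 arrays in each of the other groups, and was thus tested only through Gata2 KD. The Gata2 KD arrays did not overlap the others, and the fitted difference from EV of 1.96 (95% interval 0.55 to 3.37) was not called (adjusted p = 0.144, and 0.0566 with the slide as a block). It rests on 2 EV arrays where the signal was not well above background, so its size is uncertain, and it was 0.36 with normexp correction and 0.50 in the deposited table. Slide 1 was the one slide on which all 3 groups were well above background, and there Gata2 KD lay 1.23 above EV. The lowest EV and the lowest Pu.1 KD values were both on slide 3. In Pu.1 KD, where 2 arrays were likewise not well above background, the fitted difference was -0.11 (-1.52 to 1.30).

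**Figure D4:**
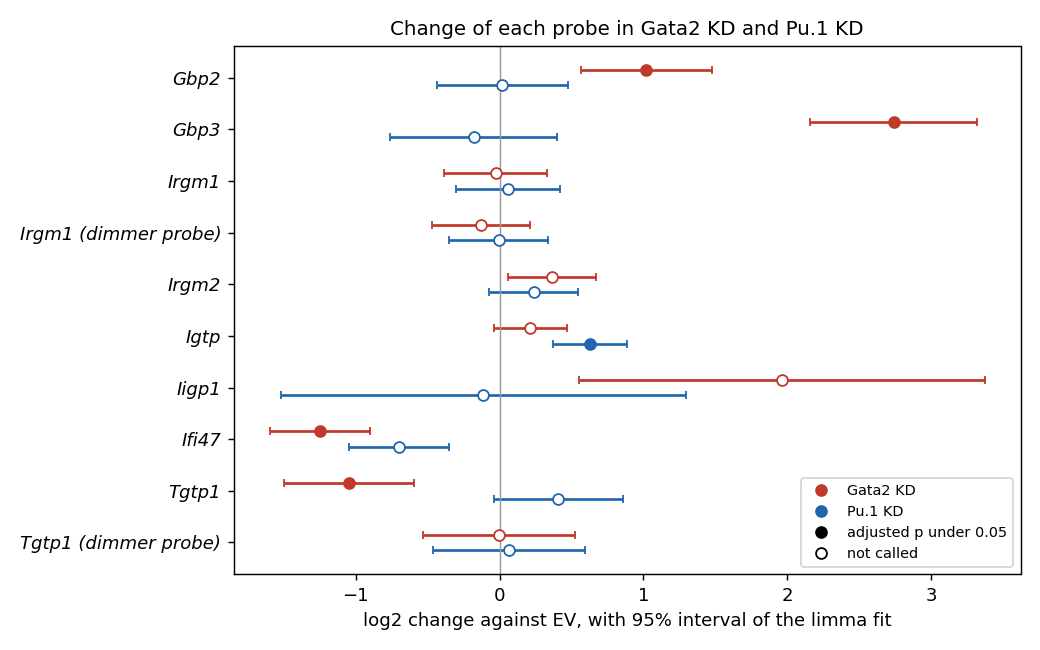
Change of each of the 10 probes in Gata2 KD (red) and Pu.1 KD (blue) against EV (x axis, log2 change with its 95% interval from the limma fit; filled markers, adjusted p under 0.05). In Gata2 KD Gbp3 and Gbp2 lay to the right of 0 and Ifi47 and the brighter Tgtp1 probe to the left, and in Pu.1 KD the filled marker is Igtp.

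The 2 knockdowns were also compared with each other, which tests the difference between their changes. Against Pu.1 KD, Gata2 KD was higher for Gbp3 by 2.92 ± 0.25 (adjusted p = 0.000163) and for Gbp2 by 1.00 ± 0.20 (adjusted p = 0.0147), and lower for Tgtp1 (-1.46 ± 0.20, adjusted p = 0.00188). These were 3 of 8 members, where 4.86% of all tested probes were called higher and 4.77% lower, 9.63% in either direction. The value of Tgtp1 is that of its brighter probe, and the other probe differed by -0.068 (95% interval -0.595 to 0.459). The groups did not overlap for 4 members that were higher and 3 that were lower, against 11.8% and 14% of all tested probes. Iigp1, among the 4, was tested only through the Gata2 KD group. With the slide as a block 6 members were called, with Iigp1 added among the higher (2.07, adjusted p = 0.0317, but 0.36 with normexp correction and 0.54 in the deposited table) and Igtp (-0.41, adjusted p = 0.0249) and Ifi47 (-0.55, adjusted p = 0.0263) among the lower. Calls over all 36585 tested probes also rose with the slide block, to 5168 from 3524 without it. The differences within the slides were -0.43 to -0.39 for Igtp and -0.56 to -0.53 for Ifi47. Irgm1 and Irgm2 were not called in either fit. Gbp2 lost its call without Gata2 KD replicate 2 or 3 or Pu.1 KD replicate 2 (0.86 to 1.01, adjusted p = 0.0566 to 0.0632).

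The members did not share 1 pattern over the 9 arrays. With each member centred on its own mean, the correlation of a member with the average of all 8 ran from 0.943 for Gbp2 to -0.788 for Tgtp1, and was 0.003 for Irgm1. The average includes the member itself and is not scaled. Members with a wide range, above all Gbp3 and the near-background Iigp1, therefore weigh most in it. Gbp2 and Iigp1 were the pair most alike (Pearson r = 0.951 over 9 arrays, and 0.93 for deviations from the group means), and both were lowest on the slide 3 arrays of EV and Pu.1 KD. Gbp2 and Gbp3 had r = 0.886 over the 9 arrays but -0.255 for deviations from the group means. Gbp2 and Tgtp1, read from its brighter probe, were the pair least alike (r = -0.896). The genes outside the family nearest to the average profile were Klk1b11 (r = 0.983), Ifit1 (0.974), Cd28 (0.971), Igf1 (0.971) and Slc40a1 (0.969). These correlations describe 9 arrays in 3 groups and carry no test.

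Other genes of the interferon pathway were read from 7 lists, 104 tested genes in all, with 22 called higher and 2 called lower in Gata2 KD and a median change of 0.20. Over all tested probes the shares called were 2.96% higher and 2.24% lower. Among 10 other interferon-inducible GTPases tested, 1 was called, Gbp7, which was higher by 0.76 (adjusted p = 0.0399), and this call was lost in 14 of 21 alternative analyses, among them those without any 1 of 8 arrays, all except Pu.1 KD replicate 3 (0.64 to 0.85, adjusted p = 0.0633 to 0.155). In Pu.1 KD 3 of the 104 genes were higher and 5 lower, where 1.27% of all tested probes were called higher and 1.42% lower. These became 8 and 7 with the slide as a block. Calls over all tested probes then were 874 higher and 1001 lower, against 465 and 521 without the block.

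Among 10 tested ligands and inducing cytokines, Ifng, the main inducer of the family, had log2 levels of -3.98, -4.70 and -4.45 in EV, -4.86, -4.15 and -4.30 in Gata2 KD, and -4.14, -4.81 and -4.16 in Pu.1 KD. The groups overlapped, with differences of -0.06 (95% interval -0.70 to 0.59) and 0.01 (-0.63 to 0.66). Ifnb1, the type I interferon beta, differed by 0.24 (-0.51 to 0.99) in Gata2 KD and by -0.01 (-0.76 to 0.74) in Pu.1 KD. Its levels ran from -4.76 to -3.50. Both genes were flagged well above background on every array, but near the low levels of Iigp1 in Gata2 KD (-4.61 to -4.12). These values do not show whether either gene was expressed. The 1 ligand called was Il18, a cytokine that induces interferon-gamma, higher by 1.00 in Gata2 KD (adjusted p = 0.0429). That call was lost in 10 of the 21 alternatives, including those without EV replicate 2 or 3, any Gata2 KD replicate, or Pu.1 KD replicate 1 or 3 (0.79 to 1.05, adjusted p = 0.0639 to 0.155).

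Of 9 receptor and JAK kinase genes, 5 rose in Gata2 KD and none was called lower. Both chains of the interferon-gamma receptor were among them. Ifngr1, the ligand-binding chain, was at 3.21, 3.45 and 3.21 in EV, 4.59, 4.26 and 4.39 in Gata2 KD, and 3.40, 3.52 and 3.69 in Pu.1 KD, a rise of 1.12 in Gata2 KD (adjusted p = 0.0034) with no overlap. Ifngr2, the signalling chain, rose by 1.44 (adjusted p = 0.00144). The type I receptor chains Ifnar1 (0.81, adjusted p = 0.0122) and Ifnar2 (0.89, adjusted p = 0.021) and the shared chain Il10rb (1.19, adjusted p = 0.0122) also rose. Ifnar1 lost its call without Gata2 KD replicate 2 or 3 (0.74 to 0.80), Il10rb without Gata2 KD replicate 2 (1.16) and Ifnar2 without EV replicate 1 or 2 or Gata2 KD replicate 1 or 2 (0.78 to 0.89). The kinases Jak1 (-0.60, 95% interval -0.97 to -0.23), Jak2 (0.12, -0.23 to 0.47) and Tyk2 (1.00, 0.33 to 1.67) were not called in Gata2 KD. Over the 21 alternatives, Jak1 was called lower in 3 and Tyk2 was called higher in 2. In Pu.1 KD Jak2 fell by 1.04 (adjusted p = 0.0125), a call lost without EV replicate 2 or any 1 of the Pu.1 KD replicates, and the receptor genes were not called.

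Of 13 transcription factors of the pathway tested, 5 were higher in Gata2 KD and none lower. Irf8, a myeloid IRF that pairs with PU.1, was at -1.87, -1.59 and -1.63 in EV, 2.74, 2.68 and 2.63 in Gata2 KD, and -2.07, -2.07 and -2.20 in Pu.1 KD. No groups overlapped, and the rise in Gata2 KD was 4.38 ± 0.13, or 20.8-fold (adjusted p = 3.47e-06). With the median over the probes of the gene it was 3.37. In Pu.1 KD Irf8 differed by -0.42 (95% interval -0.72 to -0.12, adjusted p = 0.179). Irf7, the amplifier of type I interferon, rose by 1.67 (adjusted p = 0.00136), Irf5 by 1.47 (adjusted p = 0.000853), Ciita, the activator of MHC class II genes, by 1.28 (adjusted p = 0.0106), and Irf1, which drives many GTPase promoters, by 0.80 (adjusted p = 0.0115). Ciita lost its call without Gata2 KD replicate 2 (1.22). Stat2 (0.54, 0.17 to 0.91) and Irf9 (0.40, 0.07 to 0.72), which act in type I signalling, were not called. Stat2 was called higher in 3 of the 21 alternatives. In Pu.1 KD Irf5 fell by 0.94 (adjusted p = 0.0176), a call lost without EV replicate 1 or 2 or any 1 of the Pu.1 KD replicates (-1.01 to -0.90).

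Inhibitors moved both ways in Gata2 KD, with 4 of 14 higher and 1 lower. Isg15, a ubiquitin-like modifier placed in this list, rose by 1.97 (adjusted p = 0.00112). Socs3, a feedback inhibitor of cytokine receptors, rose by 1.03 (adjusted p = 0.00955), and the phosphatases Ptpn6 and Ptpn1 rose by 0.87 (adjusted p = 0.0247) and 0.80 (adjusted p = 0.00559). Socs1, the main feedback inhibitor of the interferon-gamma receptor, was at 2.94, 3.20 and 3.08 in EV, 2.36, 2.35 and 1.95 in Gata2 KD, and 3.20, 3.09 and 3.0 in Pu.1 KD, and fell by 0.85 in Gata2 KD (adjusted p = 0.0167) without overlap. Its call was lost without EV replicate 2 or Gata2 KD replicate 2 or 3 (-0.92 to -0.72), that of Socs3 without Gata2 KD replicate 2 (1.01), and that of Ptpn6 without EV replicate 1 or 2, any 1 of the Gata2 KD replicates or Pu.1 KD replicate 1 (0.75 to 0.94). Usp18 fell by 0.96 in Pu.1 KD (adjusted p = 0.0182), lost without EV replicate 2 or 3 or any 1 of the Pu.1 KD replicates (-1.03 to -0.85).

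Of 24 tested interferon-gamma targets outside the GTPase family, 6 were higher and 1 lower in Gata2 KD. Cxcl10, a chemokine for T cells, was not well above background on any EV array and was at -0.56, -0.92 and -0.99 in Gata2 KD, at least 33.2-fold higher than EV (adjusted p = 7.49e-06). It was tested only through the Gata2 KD group, where it was high. The bound sets the mean of the brighter group against, on each EV array, the lowest signal well above background or the probe's own signal, whichever was higher. It holds for the background-subtracted signal, and the change was 2.28 on the log2 scale with normexp correction and 3.01 in the deposited table. Slc11a1, a metal transporter of phagosomes, rose by 2.53 (adjusted p = 9.79e-05, and 1.82 with normexp correction), the Fc receptor gene Fcgr4 by 1.99 (adjusted p = 0.000125), Gsdmd, the pore-forming protein of pyroptosis, by 1.89 (adjusted p = 9.79e-05) and the Fc receptor gene Fcgr1 by 1.79 (adjusted p = 0.00236). The 1 lower target was Gch1, the first enzyme of tetrahydrobiopterin synthesis, named after its values were seen, which fell by 1.31 (adjusted p = 0.00692). In Pu.1 KD Fcgr1 fell by 3.03 (adjusted p = 0.00127, and -2.20 with normexp correction) and Gsdmd by 0.69 (adjusted p = 0.0353), while Casp4, an inflammatory caspase, rose by 1.61 (adjusted p = 0.00233). Gsdmd lost its Pu.1 KD call without any 1 of the 9 arrays (-0.76 to -0.59). Cxcl10 was called higher in Pu.1 KD too (adjusted p = 0.02), where it was well above background on 1 of 3 arrays and the bound was 1.08-fold, and that call was lost in 9 of 20 alternatives, among them normexp correction, the deposited table and those without EV replicate 1 or 2 or any 1 of the Pu.1 KD replicates.

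None of 24 autophagy and GTPase partner genes, which include the Atg5 conjugation system that IRG proteins need for loading, was called by limma in either knockdown. At an unadjusted p under 0.05 there were 2 higher in Gata2 KD and 3 higher and 1 lower in Pu.1 KD, where the shares of all tested probes were 6.23% higher and 8.27% lower in Gata2 KD and 5.76% and 6.61% in Pu.1 KD. With the slide as a block 2 of the 24 were called higher in Pu.1 KD, and 3 were in the deposited table. Over all tested probes 874 and 903 were called higher in these 2 alternatives, against 465 in the main fit.

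**Figure D5:**
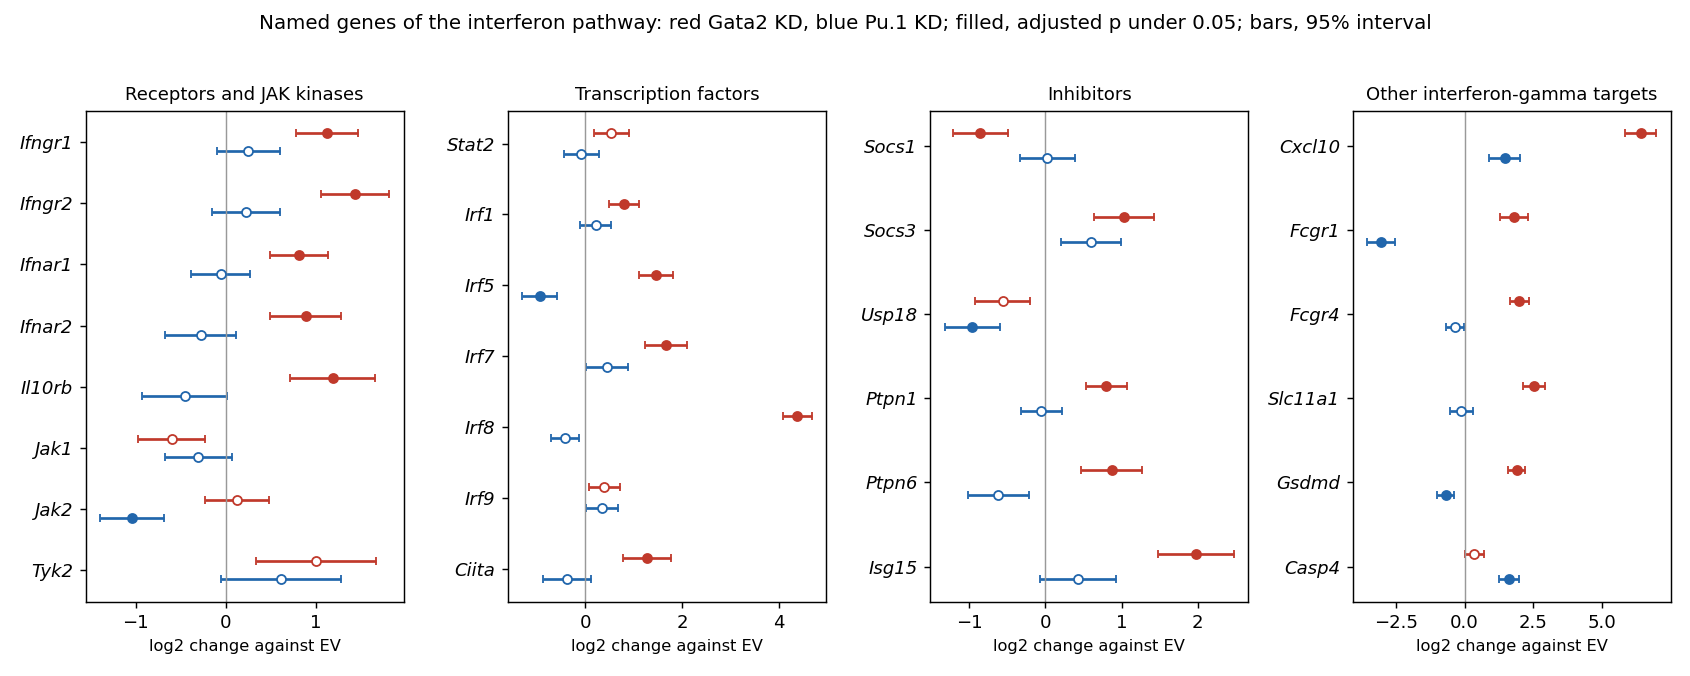
Changes of the named receptor, transcription factor, inhibitor and target genes in Gata2 KD (red) and Pu.1 KD (blue) against EV (x axes, log2 change with its 95% interval, each panel with its own range; filled markers, adjusted p under 0.05). In Gata2 KD the called genes lie to the right of 0 except Socs1, and Irf8 and Cxcl10 lie farthest right; the Cxcl10 markers plot fitted values, for which only the bounds given in the text hold.

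Some markers of monocytes and macrophages were also higher in Gata2 KD. The summed linear level of 7 such markers, relative to the 75th percentile of the array, was 4.1 to 4.56 in EV, 24.2 to 27.0 in Gata2 KD and 2.99 to 3.64 in Pu.1 KD. Of these, 4 were called higher in Gata2 KD and none lower, where 2.96% of all tested probes were called higher and 2.24% lower. Csf1r, the receptor for macrophage colony-stimulating factor, rose by 4.53, Cd14 by 3.17 and Adgre1 by 2.11. Mrc1, the other marker called, was well above background on all 3 Gata2 KD arrays and on 0 arrays of EV and Pu.1 KD. It was thus tested only through the group where it was high. Its rise was at least 6.86-fold by the bound used for Cxcl10, which holds only for the background-subtracted signal. Ms4a7, C1qa and C1qb were not called in Gata2 KD. In Pu.1 KD 1 of the 7 markers was called lower and none higher, against 1.42% and 1.27% of all tested probes. In whole sorted populations, a change in the share of cells of a type cannot be told apart from a change in RNA per cell. The part of such cells in the changes of the GTPases was not tested. Of 6 tested T and NK cell markers, none was called by limma in Gata2 KD, and the summed level of the 8 measured was 2.76 to 4.02 in EV and 2.64 to 3.41 in Gata2 KD. No marker of dendritic cells (8 tested), B cells (7 tested) or stromal cells (8 tested) was called in Gata2 KD either. At an unadjusted p under 0.05, 1 B cell marker was higher and no other marker of these 4 lists differed.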

How the data were processed

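The 9 arrays were scanned by the authors and read with Agilent Feature Extraction 10.1.1.1, whose deposited files give each spot's intensity (the processed signal, already background-subtracted) and flags, with probes annotated to mm8. A deposited table of the authors' log2 values was used as an alternative. Its columns followed the log2 median signal, and their medians were 7.00 to 7.05. Its normalization is not given in the sources used here.

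From the intensities, control spots were left out and outlier-flagged spots set missing. The log2 processed signals of a probe were averaged, and the 75th percentile of the array was subtracted. A probe was tested when well above background on at least 3 of 9 arrays with at least 2 values per group (36585 of 41174). Changes were fitted in all 9 arrays with limma 3.58.1 (R 4.3.3), and p-values were adjusted over all tested probes by Benjamini-Hochberg, with a threshold of 0.05. Accessions were named through RefSeq (GRCm38.p6, 23374 probes). A gene was read from its brightest tested probe. All members were named, with the targeted genes, 14 fixed pathway genes, up to 4 further called genes per list and comparison with EV, and the 5 genes nearest the members' mean profile. The members and lists were chosen with earlier results of these data known, and 2 list genes are not reported here. The number of arrays limits precision. Slide, replicate number, background correction, scaling, filters, variance model, groups fitted, probe rule and omission of each array were varied. Normexp used the median signal.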

Additional observations from a re-analysis of the deposited data

How the results depend on the processing

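Results were recomputed under 21 alternatives, 9 of which left out 1 array each. For Gata2 KD against EV, Gbp3 and Ifi47 were called in all 21, with changes of 1.77 to 3.0 and -1.34 to -1.19. Gbp2 lost its call in 5 and Tgtp1 in 9. The count of 4 members called went to 2 with only the 2 groups compared, and ran from 2 to 4 without 1 array. Calls over all tested probes were 1902 in the main fit, 1114 with only the 2 groups and 1072 to 1700 without 1 array. For Pu.1 KD against EV, the 1 member called became 0 with the replicate block, with scaling to the median and with only the 2 groups compared. It became 2, with Ifi47 added, with the slide block, normexp correction, quantile normalization, the deposited table, probes well above background on all 9 arrays, and a trended robust variance. Without 1 array it ran from 0 to 1, and Igtp lost its call in 11 of the 21. For Gata2 KD against Pu.1 KD, 3 members became 6 with the slide block and 5 with the deposited table, with probes above background on all arrays and with the trended robust variance, and ran from 2 to 3 without 1 array. The causes of these changes were not tested. Iigp1 was called in Gata2 KD under the replicate block, quantile normalization and the deposited table (0.50 to 2.29, adjusted p = 0.0337 to 0.0441), and had no value where a probe had to be above background on all 9 arrays. Without 1 array a group holds 2, and the spread is taken from all groups.

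Replicate numbers did not pair the samples: deviations from group means correlated from -0.552 to 0.652 between arrays of the same number, and from -0.041 to 0.719 on the same slide. The highest same-number values were 0.652 (EV 2 with Pu.1 KD 2) and 0.517 (Gata2 KD 3 with Pu.1 KD 3), and these arrays also shared a slide. The main fit had no slide term. With the replicate block, 4 members were called in Gata2 KD against EV, where Iigp1 was gained (adjusted p = 0.0337) and Tgtp1 lost (adjusted p = 0.0655), and Igtp in Pu.1 KD had adjusted p = 0.148.

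Of 22 named pathway genes called in Gata2 KD, 11 were called in every alternative that gave them a value, which was 20 for Cxcl10 and all 21 for the others (Cxcl10, Fcgr1, Fcgr4, Gsdmd, Ifngr1, Ifngr2, Irf5, Irf7, Irf8, Isg15 and Slc11a1), and of 7 in Pu.1 KD, 2 were (Casp4 and Fcgr1). Cxcl10 was tested only through the Gata2 KD group. Over the alternatives the number called higher in Gata2 KD ran from 2 to 6 for receptors and JAK kinases (5 in the report, with 0 to 1 lower), from 4 to 6 for transcription factors (5), from 5 to 8 for the other interferon-gamma targets (6), and from 1 to 4 for inhibitors (4), with 0 to 3 inhibitors lower (1). It ran from 0 to 1 for the other GTPases (1), for ligands (1) and for autophagy genes (0). Over all 104 genes, 13 to 25 were higher and 1 to 5 lower in Gata2 KD, the fewest higher without Gata2 KD replicate 2. In Pu.1 KD 1 to 10 were higher and 1 to 8 lower, with 1 and 1 under the replicate block and without any 1 of the Pu.1 KD replicates, and 0 to 3 autophagy genes were higher.

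Changes of sign occurred where neither value was called, and most values lay close to 0. Without 1 array, the range in Gata2 KD against EV was -0.127 to 0.065 for Irgm1, -0.217 to 0.155 for Ifng and -0.101 to 0.470 for Ifnb1. In Pu.1 KD against EV it was -0.163 to 0.164 for Gbp2, -0.397 to 0.079 for Gbp3, -0.018 to 0.148 for Irgm1, -0.616 to 0.545 for Iigp1, -0.150 to 0.230 for Ifng, -0.350 to 0.221 for Ifnb1, -0.044 to 0.084 for Socs1 and -0.274 to 0.115 for Il18. In Gata2 KD against Pu.1 KD it was -0.285 to 0.143 for Ifng. With normexp correction the sign turned for Irgm1 (0.012) and Ifng (0.007) in Gata2 KD, for Iigp1 (0.002), Ifng (-0.004), Ifnb1 (0.023) and Socs1 (-0.073) in Pu.1 KD, and for Ifng between the knockdowns (0.011). With quantile normalization it turned for Ifng (0.309) in Gata2 KD and for Iigp1 (0.365), Ifnb1 (0.197) and Slc11a1 (0.023) in Pu.1 KD. With median scaling it turned for Irgm1 (0.019) in Gata2 KD and Ifnb1 (0.026) in Pu.1 KD. In the deposited table it turned for Irgm1 (0.009) and Ifng (0.074) in Gata2 KD, for Ifnb1 (0.120), Ptpn1 (0.046) and Socs1 (-0.024) in Pu.1 KD, and for Ifng between the knockdowns (0.028). With the median over probes it turned for Ifng (-0.065) and Ifngr2 (-0.043) in Pu.1 KD.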
